A study of Mus musculus with 14 samples.

Results

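The mouse microRNAs mmu-miR-302a, mmu-miR-302b and mmu-miR-367, called miR-302a, miR-302b and miR-367 from here, belong to one cluster, a group of hairpins cut from a shared primary transcript. The cluster is best known from pluripotent stem cells, in which its products are abundant and act on the cell cycle and on the signals that lead to differentiation. It is largely silent in adult tissue, and in mice it has been tied to the growth of lung and heart muscle in the embryo. A microRNA finds its targets mainly through its seed, the run of bases near its 5′ end, so microRNAs that share a seed share many targets.

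The 3 microRNAs were chosen by assay name, with their threshold cycles and detection in these samples already known. They were 3 of the 375 microRNA assays of a TaqMan rodent card, and 5 of those assays came from the cluster. The values that chose them are given as a description, with no test.

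The samples came from a mouse heart transplant study with 14 arrays, each loaded with RNA pooled from 3 animals of 8 to 10 weeks of age, so that n counts pools. Allogeneic grafts were BALB/c hearts placed in C57BL/6 recipients and were rejected per the labels. Syngeneic grafts were C57BL/6 hearts placed in C57BL/6 recipients. Whole grafts were taken on day 7 (3 arrays a group), and graft-infiltrating lymphocytes (GIL) were taken from grafts on day 5 (3 arrays a group). The normal samples were 1 array of BALB/c hearts and 1 array of peripheral blood mononuclear cells (PBMC) from C57BL/6 mice. The strain of the heart and the kind of graft changed together in allogeneic against syngeneic hearts, and the strain and the transplantation changed together in syngeneic against normal hearts. Neither pair can be told apart here.

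The threshold cycle (Ct) is the PCR cycle at which a well's signal crosses a threshold. A lower Ct means more of the microRNA, and 1 cycle is about 1 log2 unit. A well counted as detected below Ct 35. The heart arrays detected 228 to 260 microRNA assays at a mean reference Ct of 22.4 to 23.9, and the lymphocyte arrays 161 to 221 at 23.2 to 28.0. Allogeneic GIL pool 3 had the fewest assays and the latest reference. Of 6 cardiac muscle microRNAs, 6 were detected on every heart array, 3 to 5 on the GIL arrays and 2 on the PBMC array, while 5 of 5 leukocyte microRNAs were detected on every array.

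The 5 hairpins of the cluster lay on the plus strand of mouse chromosome 3 in the GRCm38.p6 assembly, in the order miR-302b, miR-302c, miR-302a, miR-302d and miR-367. They spanned 580 bases, chr3:127545228-127545807. All 5 lay inside the annotated span of Larp7, a gene for an RNA-binding protein, which is on the minus strand at chr3:127536714-127553349. The mature sequences of the cluster are shown to separate its 2 seeds. They are from RefSeq, 5′ to 3′, with the seed (bases 2 to 8) in capitals, and each assay was matched to the 3p arm; miR-302a is named only.
miR-302b: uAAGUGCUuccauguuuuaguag
miR-302d: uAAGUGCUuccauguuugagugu
miR-302c: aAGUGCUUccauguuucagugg
miR-367: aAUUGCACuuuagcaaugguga

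miR-302b and miR-302d shared their first 17 bases and the seed AAGUGCU. Counted from the 5′ end of miR-302b, miR-302d differed from it by U18G, A22G and G23U. The listed miR-302c started 1 base later and matched miR-302b over its first 16 bases from there, which moved its seed by 1 base. miR-367 had an unrelated seed, AUUGCAC. Of the 1679 mature mouse microRNAs in the reference table, 5 held the miR-302b seed and 6 held the miR-367 seed.

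The microRNAs that shared these seeds are shown because the card measured them on the same arrays. The first 3 come from the miR-290 cluster on chromosome 7, a second set known from embryonic stem cells.
miR-291a-3p: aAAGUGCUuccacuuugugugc
miR-294: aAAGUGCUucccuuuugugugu
miR-295: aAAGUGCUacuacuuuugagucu
miR-25: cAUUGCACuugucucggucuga
miR-32: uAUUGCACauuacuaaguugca
miR-92a: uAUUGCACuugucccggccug
miR-363: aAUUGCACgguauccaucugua

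In hearts, miR-302b separated the allogeneic grafts from both other groups, whereas miR-367 separated the syngeneic grafts from both other groups. miR-302a overlapped between allogeneic and syngeneic grafts. Its level in the normal heart, as scaled below, lay above all 3 arrays of either kind. That order depends on the scale: by Ct, syngeneic pool 2 (31.20) was earlier than the normal heart (31.29). All 3 microRNAs were close to the end of what the cards could measure.

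miR-302b had Ct 36.31, 36.98 and 35.52 in allogeneic hearts, against 32.49, 32.75 and 32.58 in syngeneic hearts and 32.59 in the normal heart. The 3 allogeneic wells all crossed the threshold after the limit, and the other 4 lay between 32.49 and 32.75. miR-367 had Ct 32.99, 34.64 and no threshold crossing in allogeneic hearts, against 30.15, 30.39 and 31.66 in syngeneic hearts and 34.95 in the normal heart. The 3 syngeneic wells were thus earlier than the 4 others, all of which came from BALB/c hearts. miR-302a had Ct 34.95, 31.60 and 32.89 in allogeneic hearts, against 32.89, 31.20 and 31.36 in syngeneic hearts and 31.29 in the normal heart. Its groups overlapped, and the latest of its wells, that of allogeneic pool 1, carried a flag of the export software (NAW) whose meaning is not given in the sources used here.

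**Figure D1:**
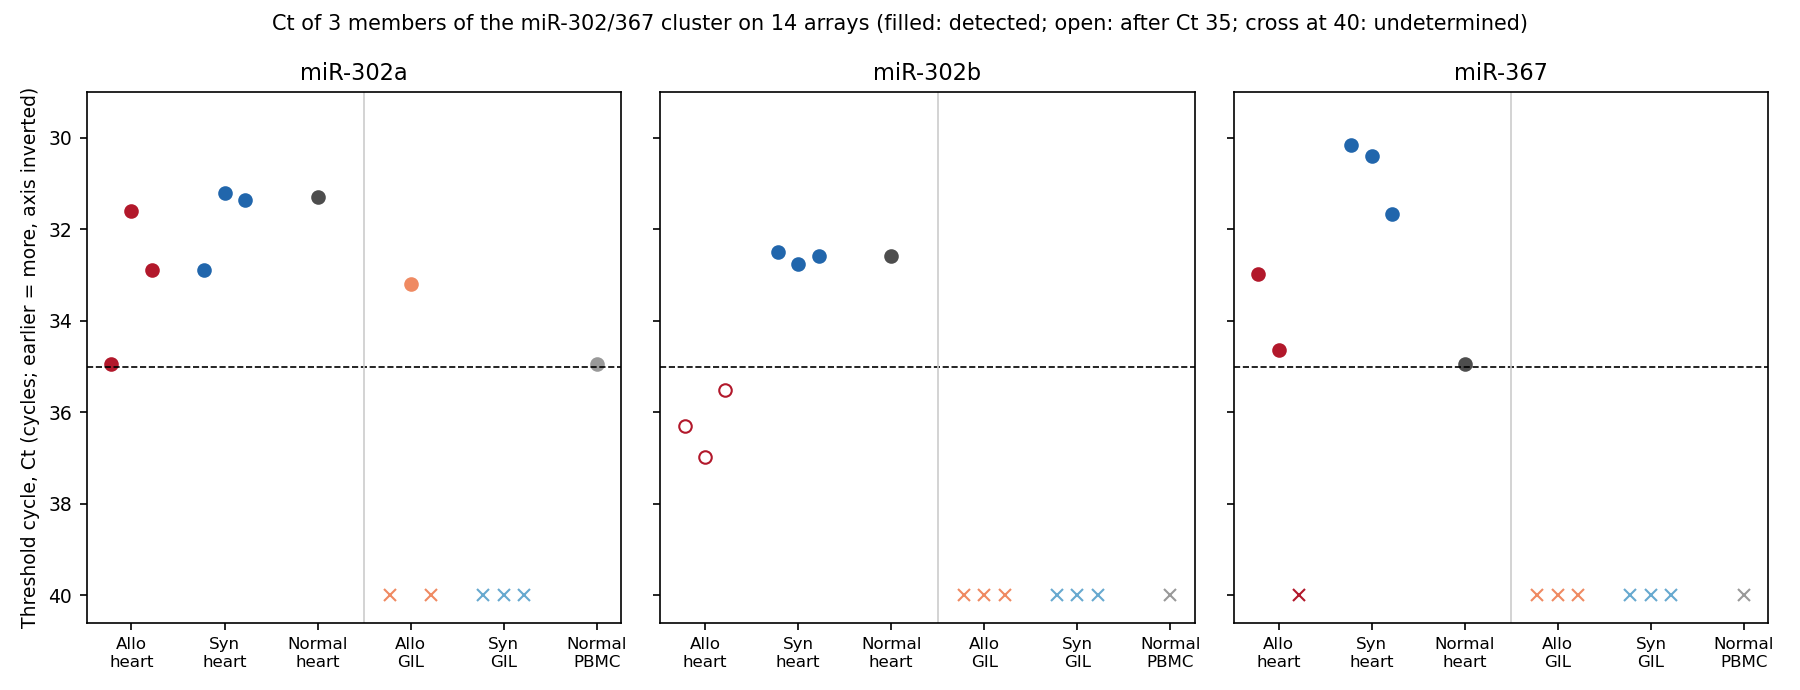
Ct of miR-302a, miR-302b and miR-367 on each of 14 arrays, on an inverted axis in cycles, by group. Filled points were detected, open points crossed the threshold after Ct 35 (dashed line), and crosses at 40 mark undetermined wells. The miR-302b points of the 3 allogeneic hearts lie past the line, at 35.52 to 36.98, and the miR-367 points of the 3 syngeneic hearts lie above all others, at 30.15 to 31.66.

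To compare groups, each Ct was turned into a level, the mean Ct of 210 microRNA assays detected on all 7 heart arrays minus the Ct, in log2 units. Wells past the limit were set to Ct 35. The allogeneic and syngeneic arrays did not overlap for 2 of the 3 microRNAs, miR-302b and miR-367. The same held for 54.2% of the 238 assays tested in this comparison, and for 27.7% with the allogeneic arrays lower. Since this contrast was among the values that chose the 3 microRNAs, nothing is read from their count.

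The miR-302b level was at the limit in allogeneic hearts, at -11.81, -11.90 and -11.52. It was -10.09, -9.39 and -8.80 in syngeneic hearts and -8.72 in the normal heart. The difference of allogeneic minus syngeneic hearts was -2.32 (SE 0.36, n = 3 each), which makes miR-302b at least 4.98-fold lower, as no allogeneic array detected it. This SE holds no variation of miR-302b within the allogeneic group, where the levels vary only with the array reference. With the late wells kept at their own Ct the difference was -3.59, or 12.02-fold lower. Normal and syngeneic hearts were neighbours: the syngeneic mean was 0.71 below the normal level, close to the SD of 0.65 among the 3 syngeneic arrays.

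The miR-367 level was -9.80, -11.54 and -11.52 in allogeneic hearts, the last of them at the limit. It was -7.75, -7.03 and -7.89 in syngeneic hearts and -11.08 in the normal heart. The difference of allogeneic minus syngeneic hearts was -3.40 (SE 0.53, n = 3 each), or 10.5-fold lower, with 2 of 3 allogeneic arrays detected. The size depends on the limit given to the undetected well: at Ct 40 the difference was -5.06, or 33.5-fold lower. Syngeneic hearts stood 3.53 above the normal heart (SD 0.46, n = 3), an 11.5-fold higher level, and 3 of 3 arrays were above it. Allogeneic hearts differed from the normal heart by 0.13 (SD 1.00, n = 3), with 1 of 3 arrays above it. That small difference turned to -0.45 without allogeneic pool 1, so that no direction holds between allogeneic and normal hearts.

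The miR-302a level was -11.76, -8.51 and -9.41 in allogeneic hearts. It was -10.49, -7.83 and -7.59 in syngeneic hearts and -7.42 in the normal heart. The difference of allogeneic minus syngeneic hearts was -1.25 (SE 1.06, n = 3 each), within the spread of the pools, and it was -0.32 without allogeneic pool 1. Pool 1 was the lowest of its group in both kinds of graft. The order of the means was allogeneic (-9.89), syngeneic (-8.64) and normal (-7.42) from low to high, and no step in it exceeded the SD of 1.68 among allogeneic or 1.61 among syngeneic arrays.

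In syngeneic against normal hearts, 3 of 3 arrays lay above the normal array for 38.8% of the 242 assays compared, and 3 of 3 lay below it for 43.4%. In allogeneic against normal hearts those shares were 42.3% and 47.3% of 241 assays. An order like that of miR-367, with all syngeneic arrays above all allogeneic arrays and above the normal array, was seen for 15 of 245 assays (6.12%). An order like that of miR-302b, with all allogeneic arrays below all syngeneic arrays and below the normal array, was seen for 57 of 245 (23.3%). These shares are the background of the 2 patterns and not a test of them.

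A difference in Ct between 2 microRNAs on the same card needs no scaling. The Ct of miR-302b minus that of miR-367 on the same card was 3.32 and 2.35 in the 2 allogeneic hearts with both values. It was 2.34, 2.36 and 0.92 in syngeneic hearts and -2.36 in the normal heart. Allogeneic and syngeneic hearts overlapped on this measure. Of these 6 hearts, miR-367 was the later of the 2 in the normal heart alone, where it crossed at Ct 34.95, just before the limit. In allogeneic pool 3, miR-302b crossed at Ct 35.52 and miR-367 did not cross. The Ct of miR-302b minus that of miR-302a was 1.36, 5.38 and 2.63 in allogeneic hearts, against -0.40, 1.55 and 1.21 in syngeneic hearts and 1.30 in the normal heart. On that measure the normal heart lay among the syngeneic hearts, and so did allogeneic pool 1 (1.36), so the graft groups overlapped here too. Within a card such a difference also holds the unequal efficiencies of 2 assays, so only its change between arrays can be read.

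Both of the run days that held an allogeneic and a syngeneic heart gave the same direction for each microRNA. Between allogeneic pool 1 and syngeneic pool 1 the difference in level was -1.27 for miR-302a, -1.72 for miR-302b and -2.05 for miR-367. Between allogeneic pool 3 and syngeneic pool 2 it was -1.58 for miR-302a, -2.13 for miR-302b and -4.49 for miR-367. The normal heart was the only array of its run day, so that its run day and its group cannot be told apart.

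The authors' deposited table gives a relative quantity against the normal heart, based on snoRNA202. In the authors' deposited table miR-302b stood at 0.057, 0.042 and 0.19 in allogeneic hearts, against 0.57, 0.801 and 1.25 in syngeneic hearts. For miR-367 the authors' deposited table gives 2.93, 1.09 and 0.044 in allogeneic hearts, against 14.9, 21.1 and 12.2 in syngeneic hearts. The value of 0.044 belongs to the well with no threshold crossing, which was entered at Ct 40. For miR-302b and miR-367 these quantities show the same separation as the levels. For miR-302a they were 0.06, 0.709 and 0.478 in allogeneic hearts, against 0.176, 0.955 and 1.18 in syngeneic hearts. Syngeneic pool 3 was thus above the normal heart for miR-302a, unlike in the levels.

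All of these wells were late ones, where the cards are least precise. Among the assays detected on each heart array, miR-302b ranked 257 of 260, 241 of 241 and 239 of 240 in syngeneic hearts by Ct, counted from the earliest. miR-367 ranked 247 of 250 and 242 of 243 on the 2 allogeneic arrays that detected it, 249 of 260, 226 of 241 and 234 of 240 in syngeneic hearts, and last of 228 in the normal heart. Precision was taken over the assays detected on every array of a group. Assays with a mean Ct of 30 to 35 had a median SD of 0.71 among allogeneic hearts (11 assays) and 0.60 among syngeneic hearts (7 assays). Assays with a mean Ct below 25 had 0.35 among allogeneic hearts (146 assays) and 0.25 among syngeneic hearts (147 assays). The late sets included miR-302a in both groups, and miR-302b and miR-367 in syngeneic hearts, so they were not independent of these microRNAs.

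Cell-type markers moved along the same contrast. Each summed level holds only those markers of a list that the array detected. Of the 6 cardiac muscle microRNAs, 5 were lower in allogeneic than in syngeneic hearts in limma's fit, against 15.1% of all assays called lower, and their summed level was 9.13 to 9.47 in allogeneic hearts, against 10.54 to 11.27 in syngeneic hearts and 12.18 in the normal heart. The 5 leukocyte microRNAs summed to 7.83 to 8.26 in allogeneic hearts, against 7.11 to 7.57 in syngeneic hearts and 6.68 in the normal heart, and 2 of them were called higher in allogeneic hearts, against 17.2% of all assays. The 2 endothelial microRNAs were both called lower and summed to 6.78 to 7.39 in allogeneic hearts, against 8.553 to 9.001 in syngeneic hearts and 10.03 in the normal heart. Of 2 erythroid microRNAs, 1 was called higher, also against 17.2%, and they summed to 3.58 to 4.83 in allogeneic hearts, against -0.74 to 1.66 in syngeneic hearts and 3.01 in the normal heart. Of 3 fibroblast microRNAs, 2 were called lower and the third could not be tested; they summed to 2.06 to 2.84 in allogeneic hearts, against 3.92 to 4.67 in syngeneic hearts and 3.41 in the normal heart. Of 2 smooth muscle microRNAs, 1 was called lower, and they summed to 5.73 to 6.27 in allogeneic hearts, against 6.915 to 7.007 in syngeneic hearts and 8.003 in the normal heart. The fibroblast sum was thus highest in syngeneic hearts, as was miR-367, and the cardiac, endothelial and smooth muscle sums were highest in the normal heart and lowest in allogeneic hearts. The part of these markers in the results was not tested, and in whole tissue fewer cells of a type and less RNA per cell cannot be told apart.

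Over the 7 heart arrays, miR-302b and miR-367 had different nearest neighbours among the 244 assays detected on at least 3 of them. Nearness was the root mean square difference of levels, each centred on its own mean. For miR-302b they were miR-676 (0.251), the muscle microRNA miR-133a (0.345) and miR-204 (0.423), against a median of 1.46 over all 244. For miR-367 they were miR-135a (0.611), miR-135b (0.902) and miR-539 (1.20), against a median of 1.93. For miR-302a no assay was closer than 1.06 (miR-208, a microRNA of heart muscle), and miR-190 (1.11) and miR-9 (1.14) followed, against a median of 1.68.

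Among the cluster's own members, miR-302a and miR-302b were 1.17 apart, miR-302b and miR-367 1.56, and miR-302a and miR-367 2.31. These distances also hold the wells of miR-302b and miR-367 that were set to the limit. The distance of miR-302a and miR-367 was larger than the median distance of either of them to the 244 assays, and that of miR-302b and miR-367 was larger than the median for miR-302b but not for miR-367. miR-135a and miR-133a were picked for nearness on these same arrays, so their likeness is no separate support. miR-135a showed the miR-367 order at earlier cycles. It had Ct 28.41, 28.79 and 28.83 in allogeneic hearts, against 25.13, 25.67 and 25.81 in syngeneic hearts and 28.95 in the normal heart. miR-133a showed the miR-302b order, with Ct 14.14, 14.14 and 14.34 in allogeneic hearts, against 12.07, 12.62 and 12.70 in syngeneic hearts and 11.95 in the normal heart.

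**Figure D2:**
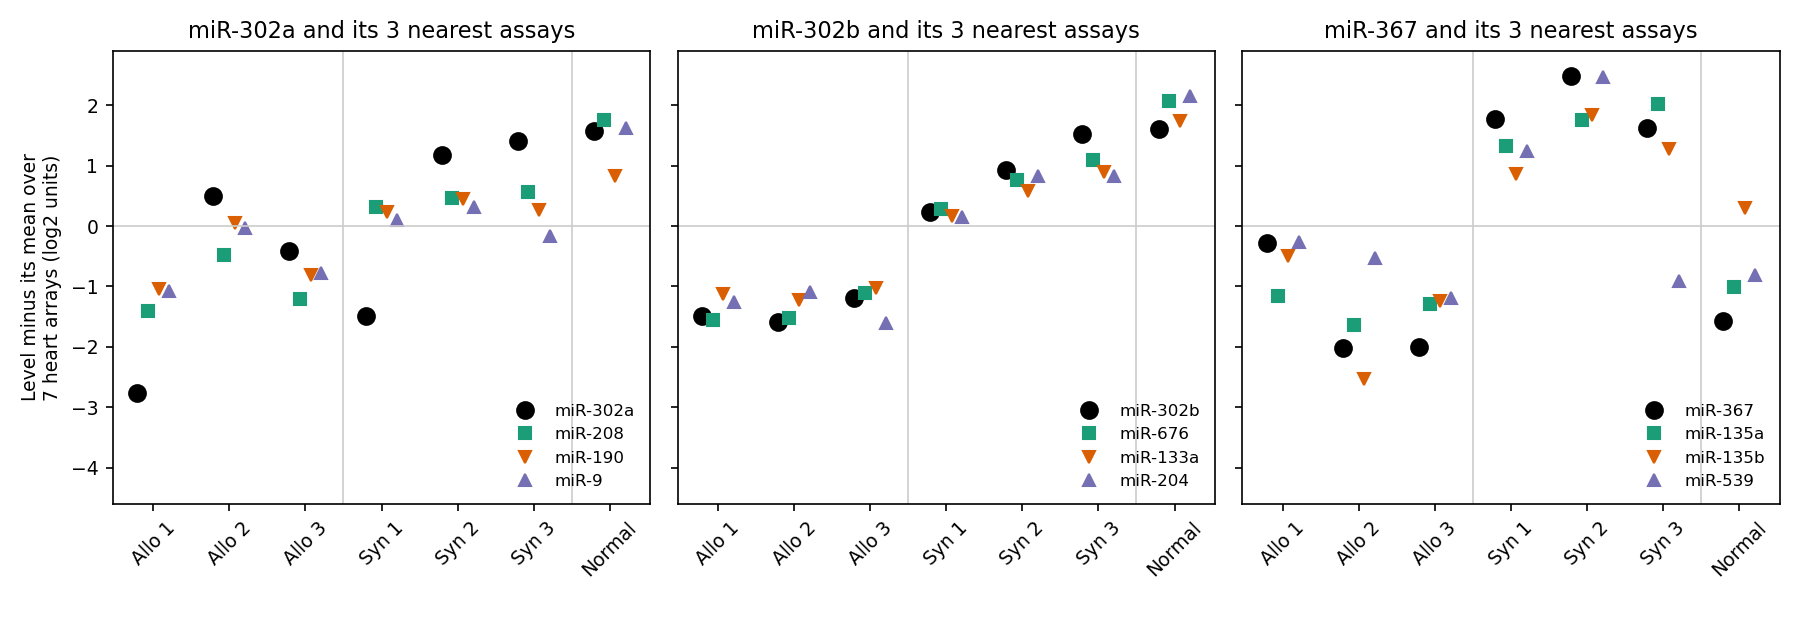
Level of each microRNA and of its 3 nearest assays on the 7 heart arrays, each minus its own mean, in log2 units. Wells past the limit are set to Ct 35. The normal array lies with the syngeneic arrays for miR-302b and with the allogeneic arrays for miR-367, and the points of miR-302a overlap between allogeneic and syngeneic arrays.

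In lymphocytes the cluster was barely measurable. miR-302b and miR-367 were undetermined on 7 of 7 lymphocyte arrays. miR-302a was undetermined on 2 of 3 allogeneic and 3 of 3 syngeneic GIL arrays. It had Ct 33.19 in allogeneic GIL pool 2 and 34.95 in PBMC. No fold is given for a microRNA that was detected in 1 of 3 pools of one group and in none of the other.

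The cards of the lymphocyte table reached less far down. Relative to snoRNA202, the reference of the deposited values, Ct 35 corresponded to a level of -16.76, -14.98 and -13.04 in allogeneic GIL, -16.87, -15.87 and -16.26 in syngeneic GIL and -18.81 in PBMC. On the same scale the mean level in syngeneic hearts was -16.42 for miR-302a, -17.21 for miR-302b and -15.33 for miR-367. The limit lay below the syngeneic heart mean on 1 of 7 lymphocyte arrays for miR-302b, 3 of 7 for miR-302a and 5 of 7 for miR-367. An amount of miR-302b like that in syngeneic hearts would thus have been out of reach on the 6 GIL arrays, whereas such an amount of miR-367 would have been within reach on 4 of them. The comparison rests on snoRNA202 being alike in both kinds of sample, which was not tested.

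The other members of the cluster gave almost no signal. miR-302c was undetermined on 14 of 14 arrays. miR-302d, which differs from miR-302b by 3 bases, was undetermined on 13 of 14 and had Ct 29.08 in syngeneic heart pool 1. That well was not flagged by the software and was earlier than any well of miR-302a, miR-302b or miR-367. The authors' deposited table gives it a relative quantity of 1035 against the undetermined normal heart.

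The miR-290 cluster, whose products include 3 with the miR-302b seed, gave a signal for 3 of its 7 assays. Of its 7 assays, miR-290-3p, miR-291a-3p, miR-291b-5p and miR-293 were undetermined on 14 of 14 arrays. The other 3 could be tested in hearts, and 0 of 3 were called by limma with Benjamini-Hochberg adjustment, against 32.4% of all 238 assays. Of the 238, 113 had an unadjusted p under 0.05 in limma, and so did 1 of the 3. That one was miR-292-3p, with Ct 32.01, 33.03 and no crossing in allogeneic hearts, against 28.90, 31.20 and 32.36 in syngeneic hearts and 32.01 in the normal heart. Its difference was -2.45 (SE 0.79, adjusted p = 0.0537).

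miR-294 and miR-295 differed by -1.68 (SE 1.83) and 1.26 (SE 0.94) in allogeneic minus syngeneic hearts. miR-295 had Ct 32.30, 31.67 and 30.71 in allogeneic hearts, against 31.11, 36.00 and 32.11 in syngeneic hearts, and was undetermined in the normal heart. miR-294 was earlier, with Ct 28.94, no crossing and 27.71 in allogeneic hearts, against 27.78, 29.02 and 29.58 in syngeneic hearts. It was undetermined in the normal heart. All wells of miR-294 that crossed the threshold carried the software flag. In lymphocytes 0 of the 7 assays could be tested.

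The relatives of miR-367 by seed that passed the test were higher in allogeneic samples. miR-25, miR-92a and miR-363 come from the miR-17 cluster and its paralogs, which act on lymphocyte growth and survival. In hearts 3 of the 4 could be tested (miR-363 could not), and 1 was called higher and 0 lower, against 17.2% of all assays called higher. The median difference of the 3 was 0.63, against 0.02 over all 238 assays. miR-25 had Ct 22.33, 21.77 and 23.28 in allogeneic hearts, against 22.62, 23.91 and 24.40 in syngeneic hearts and 23.95 in the normal heart. Its level difference was 1.26 (SE 0.33, adjusted p = 0.0288 in limma), in the direction opposite to that of miR-367, and the groups did not overlap in level. The call was lost in 8 of 17 alternatives, among them run day as a fixed block (0.91, adjusted p = 0.103 in limma), the replicate block (adjusted p = 0.0602) and scaling to MammU6 (1.14, adjusted p = 0.225).

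In GIL, 2 of the 3 tested relatives were called higher and 0 lower, against 36.3% of the 201 assays tested there called, 12.4% higher and 23.9% lower. miR-25 differed by 0.98 (SE 0.25, adjusted p = 0.0294 in limma) and miR-92a by 0.93 (SE 0.28, adjusted p = 0.0478). miR-32 differed by 2.07 (SE 0.76, adjusted p = 0.0787) and did not pass. The median difference of the 3 was 0.98, against -0.24 over all assays.

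The miR-17 family carries a seed that overlaps the miR-302 seed with a shift of 1 base, AAAGUGC in place of AAGUGCU, except for miR-18a. All 7 of its assays were detected on all 14 arrays. In hearts, 2 of 7 were called higher and 0 lower, against 17.2% of all assays called higher: miR-18a by 1.28 (SE 0.32, adjusted p = 0.0253 in limma) and miR-106b by 1.41 (SE 0.41, adjusted p = 0.0415). In GIL, 4 of 7 were called higher and 0 lower, against 12.4% of all assays called higher. The difference was 2.28 (SE 0.33, adjusted p = 0.00713 in limma) for miR-18a and 1.44 (SE 0.31, adjusted p = 0.018) for miR-20b. For miR-106b it was 0.99 (SE 0.24, adjusted p = 0.0241) and for miR-20a 0.89 (SE 0.27, adjusted p = 0.0478).

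The median difference of the miR-17 family was 0.49 in hearts and 0.89 in GIL. With run day as a fixed block, no family member was called in hearts (adjusted p = 0.0875 for miR-18a and 0.0914 for miR-106b in limma), and with the replicate block miR-106b was not (adjusted p = 0.0602). Of the 6 relatives called in GIL, the replicate block left miR-18a and miR-20b called, with adjusted p = 0.0633 for miR-25, 0.0945 for miR-92a, 0.0692 for miR-106b and 0.108 for miR-20a.

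No run day held both allogeneic and syngeneic GIL, so that run day and kind of graft cannot be told apart in any GIL call. Cell-type markers also differed there, where 12.4% of all 201 tested assays were called higher and 23.9% lower. Of 3 cardiac muscle microRNAs tested in GIL, 2 were called higher in allogeneic GIL. Of the 6 on the list, 3 to 5 were detected in allogeneic GIL, 4 in syngeneic GIL and 2 in PBMC. Those detected summed to 5.18 to 6.45 in allogeneic GIL, against 3.78 to 4.47 in syngeneic GIL and -3.69 in PBMC. Of 5 leukocyte microRNAs, 2 were called higher (miR-142-3p and miR-155), and they summed to 5.91 to 6.53 in allogeneic GIL, against 5.27 to 6.07 in syngeneic GIL and 8.535 in PBMC. All 3 fibroblast microRNAs were called lower, miR-214 with a difference of -3.45 (SE 0.46, adjusted p = 0.00713 in limma). They summed to 1.905 to 3.13 in allogeneic GIL, against 4.43 to 4.71 in syngeneic GIL. In PBMC, where only 1 of the 3 was detected, the value was -4.865. The 2 endothelial microRNAs, of which 1 was called lower, summed to 4.55 to 5.315 in allogeneic GIL, against 5.79 to 6.42 in syngeneic GIL and 0.28 in PBMC. The erythroid and smooth muscle lists had no call. Of the 2 erythroid microRNAs, only miR-451 was detected on the lymphocyte arrays. Its level was -2.39 to -1.82 in allogeneic GIL, against -3.18 to -2.20 in syngeneic GIL and -0.39 in PBMC. Smooth muscle microRNAs summed to 5.02 to 5.80 in allogeneic GIL, against 4.75 to 6.165 in syngeneic GIL and -2.455 in PBMC. The part of these markers in the GIL calls was not tested.

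Of the relatives called in hearts, 3 of 3 lost their call without allogeneic pool 1, without syngeneic pool 2 or without syngeneic pool 3. Without those pools, the calls over all heart assays numbered 43, 42 and 45, against 77 with all pools. Of the 6 relatives called in GIL, 2 remained called without allogeneic pool 1, 3 without allogeneic pool 3, 3 without syngeneic pool 1, and 1 without either syngeneic pool 2 or syngeneic pool 3. Across 17 alternatives in hearts and 16 in GIL, no relative named here as called changed its direction, and miR-18a kept its call in GIL in 16 of 16. Leaving out the filter, the replicate block and the graft arrays alone can change a call but not a direction.

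**Figure D3:**
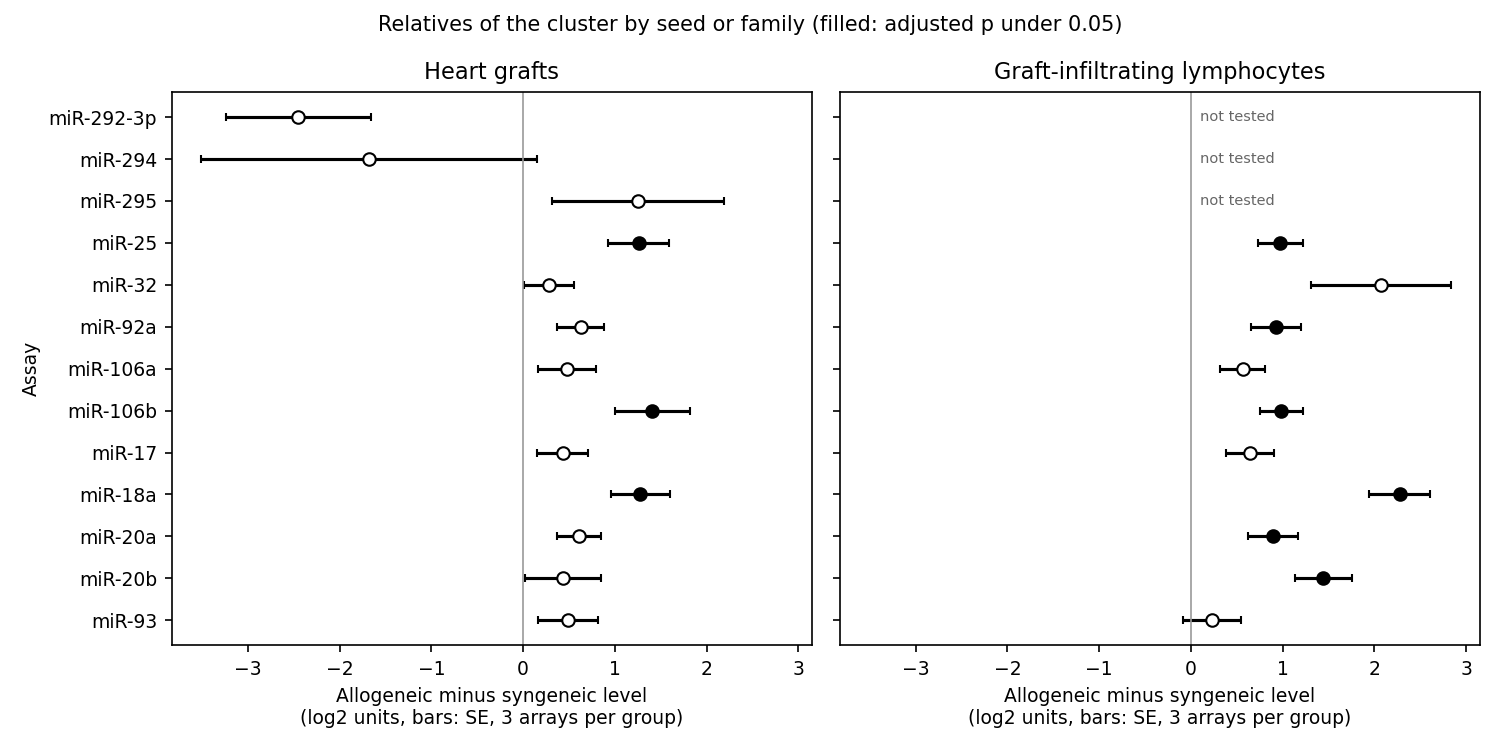
Allogeneic minus syngeneic difference in level (log2 units, bars show the SE, 3 arrays a group) for the tested relatives of the cluster in hearts and in GIL. Filled points have an adjusted p under 0.05. The 3 filled points in hearts and the 6 in GIL all lie to the right of 0.

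The 238 heart assays had a median difference of 0.02. Among them, miR-367 (-3.40), miR-302b (-2.32) and miR-302a (-1.25) were lower in allogeneic hearts, a contrast known when they were chosen. The 10 tested relatives with the miR-367 seed or of the miR-17 family lay on the other side of 0. The tested assays of the miR-290 cluster were split, with miR-292-3p (-2.45) and miR-294 (-1.68) lower and miR-295 (1.26) higher.

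**Figure D4:**
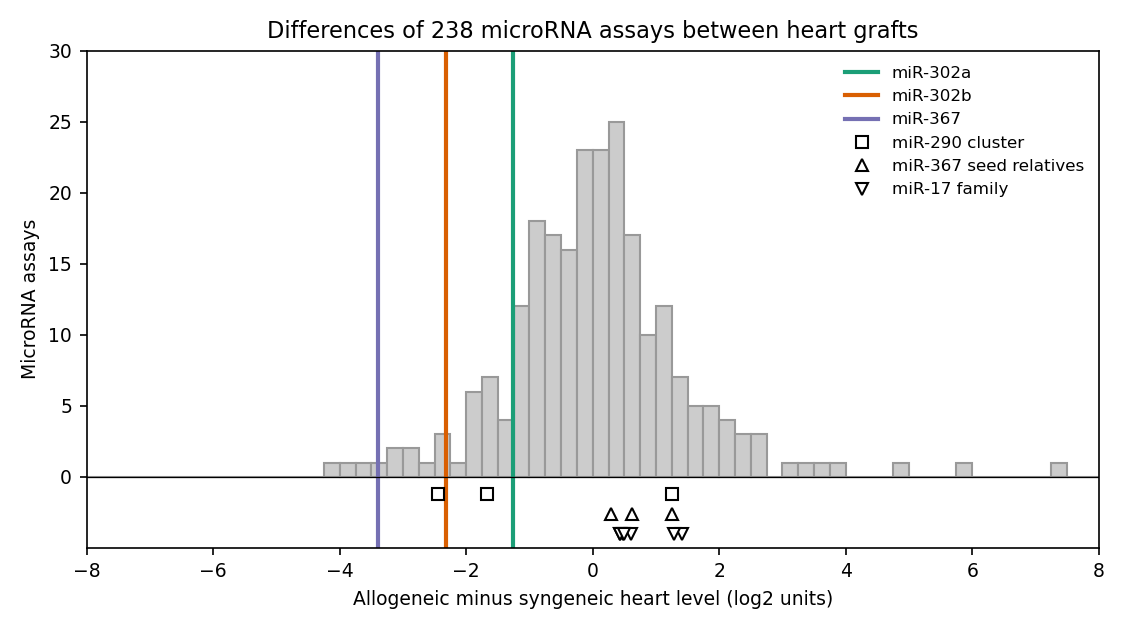
Histogram of the allogeneic minus syngeneic difference in level (log2 units) for 238 microRNA assays in hearts. Vertical lines mark miR-302a, miR-302b and miR-367 at -1.25, -2.32 and -3.40, and the symbols under the axis mark the tested assays of the related lists.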

How the data were processed

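MicroRNAs were measured with TaqMan cards of 384 wells (381 detectors, of which 375 were microRNA assays). Per the labels' protocols, 100 ng of RNA from each of 3 animals was pooled (300 ng) after mirVana isolation, then taken through Megaplex reverse transcription and preamplification to a 7900HT instrument. Per the file headers, the values were exported by SDS software; the baseline and threshold settings are not given in the sources used here. Ct values were used as deposited. The deposited delta Ct, on a log2 scale, equals the Ct minus that of snoRNA202, with undetermined wells at 40, within 0.001 for 2624 of 2624 heart and 2625 of 2625 lymphocyte values checked. The relative quantity, as deposited, is a ratio with the normal array of each table at 1. The let-7b well of allogeneic heart pool 2 carried another sample name and was left out.

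Levels were a reference Ct minus the Ct, the reference being the mean over assays found on each of a table's 7 arrays (210 in hearts, 137 in lymphocytes), with wells undetermined or at Ct 35 or later set to 35. The 2 tables were scaled separately. Assays that at least 1 of the compared groups showed on all its arrays were tested with limma (version 3.58.1, R 4.3.3, moderated by eBayes, both sides, the groups of a table fitted together). Calls needed a p under 0.05 after Benjamini-Hochberg adjustment. Whether the pools of a group share animals is not given in the sources used here, so p-values measure the spread between these pools. The number of arrays limits the precision. The fit was tested on simulated data modelled on assays detected on all 7 arrays of a table. That simulation held no wells set to the limit and no run-day effect, so it does not cover them. The 3 microRNAs, the related lists and the markers were chosen with earlier results of these data known. Named assays were the 3 microRNAs, the listed relatives (those called with values, the others by range or count), the 3 nearest assays of each, and markers; values of relatives that were not called were added after they were seen. Alternatives changed the scaling, the limit, the filter, the blocks and the arrays in the fit. Sequences and positions are from RefSeq (GRCm38.p6), in which 2 of the 3 microRNAs matched a 3p sequence.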

Additional observations from a re-analysis of the deposited data

Results flagged for a closer look

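A signal outside the comparisons was seen for miR-302d, which had Ct 29.08 in syngeneic heart pool 1 and was undetermined in the normal heart and on every other array. A signal was also seen for miR-302a in allogeneic GIL pool 2, at Ct 33.19, earlier than in the PBMC control (34.95) and undetermined in the other 5 GIL pools. Each is 1 well, and neither was repeated on another array of its group. Groups held 3 arrays or 1, so that no test for a single array far from its group was made.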

How the results depend on the processing

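The difference of allogeneic minus syngeneic hearts kept its direction in 17 of 17 alternatives for miR-302a and miR-367 and in 16 of 17 for miR-302b. The exception was a limit of Ct 32, which puts all 7 miR-302b wells at the limit (0.073). Some alternatives could not change the difference and say nothing about its direction. These were no filter, the graft arrays alone, the replicate block and, for miR-302a, a limit of Ct 40. Under the scalings, filters and blocks tried, the difference was -1.51 to -1.10 for miR-302a, -2.57 to -1.92 for miR-302b and -3.66 to -3.24 for miR-367. Leaving out 1 pool gave -2.18 to -0.32, -2.65 to -2.00 and -3.97 to -3.10 for the same 3. The limit moved sizes: miR-302b had -3.59 at Ct 40, and miR-367 had -1.19 at Ct 32 and -5.06 at Ct 40. Against the normal heart, miR-367 in syngeneic grafts had 0.59 at Ct 32. In allogeneic grafts it had -0.60 at Ct 32, -1.54 at Ct 40 and -0.45 without pool 1 (range over pools left out -0.45 to 0.42). miR-302b in allogeneic grafts had -2.80 scaled to MammU6, -2.43 scaled to snoRNA202, -0.60 at Ct 32 and -4.30 at Ct 40. Both values of -0.60 come from wells that were all set to the limit, so they hold only the array references. GIL gave no difference for the 3 microRNAs: miR-302b and miR-367 were undetected there and miR-302a was detected in 1 of 6 pools. Calls in hearts, 77 as reported, were 34 with MammU6, 42 with no filter, 46 with the replicate block, 2 with a fixed block for run day (1 residual degree of freedom) and 42 to 81 with 1 pool left out. The count of listed relatives called in hearts, 3 as reported, became 0 with MammU6, with no filter and with the fixed run day. It became 1 with the reference median (0 higher, and not one of the 3) and 0 to 4 with 1 pool left out. Calls in GIL, 73 as reported, were 31 with snoRNA135 and snoRNA202, 48 with snoRNA202, 35 with no filter and 39 to 73 with 1 pool left out. The count of listed relatives called in GIL, 6 as reported, became 1 with no filter and 1 to 4 with 1 pool left out. With the replicate block it was 3, namely miR-18a, miR-20b and 1 relative that was not among the 6. Run day as a random block, chosen after seeing the data, gave 77 and 74 calls, but in GIL it does not separate run day from kind of graft. Higher and lower calls split 42 and 23 with snoRNA202 and 24 and 56 with the reference median in hearts (41 and 36 in the fit reported). In GIL they split 34 and 20 with MammU6, 21 and 10 with both snoRNAs, 38 and 10 with snoRNA202 and 36 and 39 with the reference median (25 and 48 in the fit reported). Those scalings moved the median of all assays by -0.12 (MammU6), 0.15 (snoRNA202) and -0.26 (reference median) in hearts, and by 0.82, 0.89 and 0.22 in GIL (0.65 with both snoRNAs). Same-numbered pools correlated at -0.04, -0.29 and 0.12 in hearts and 0.19, 0.23 and -0.16 in GIL, so the numbers were not taken as pairs. With the replicate block the differences were -1.25, -2.32 and -3.40.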

Other observations

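Ct values bunched near whole cycles. Of 3147 determined microRNA wells, 33.8% lay within 0.1 cycles of a whole number, where an even spread would give 20%. The share was 29.6% below Ct 25, 35.4% at Ct 25 to 30, 45.2% at Ct 30 to 35 and 66.7% of the 27 wells at Ct 35 or later. It ranged from 25% (syngeneic heart pool 1) to 65.9% (allogeneic GIL pool 3), and was 48.9% in the normal heart. Of the 22 determined wells of miR-302a, miR-302b and miR-367, 5 lay that close to a whole cycle. Of those, 3 were the values of 34.95 given for miR-302a in allogeneic heart pool 1 and in PBMC and for miR-367 in the normal heart, each less than 0.1 cycles before the limit.

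The authors' deposited table also holds relative quantities for wells with no threshold crossing. For miR-302a in GIL, where the PBMC well at Ct 34.95 is set to 1, the authors' deposited table gives 0.124 and 1.64 for the undetermined allogeneic pools 1 and 3, 47.7 for the detected pool 2, and 0.116, 0.231 and 0.176 for the undetermined syngeneic pools. The value of 1.64 for an undetermined well is above that of the detected PBMC well.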
